A study of Mus musculus with 12 samples.

Results

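The Sh3bgrl gene family was described here across regulatory T cells (Tregs). Its members were the rows of the deposited tables with the symbols Sh3bgrl, Sh3bgrl2 and Sh3bgrl3, which gave 3 of the 26609 genes in the count table, and all 3 passed the filter on low counts. The family was chosen by the measured counts of these libraries, in which Sh3bgrl had been seen to be lower under the title KO, so its differences between KO and WT are given as a description, with no test. RNA was sequenced from CD4+CD25hiCD127lo singlets sorted by flow cytometry from mesenteric lymph nodes of untreated SAMP/YitFC mice, which get ileitis without any treatment to cause it. The groups were SAMP/YitFC-ERb-KO females and SAMP/YitFC-ERb-KO males, which by design lack estrogen receptor beta (ERb, gene Esr2) in all cells, and SAMP/YitFC-WT females and SAMP/YitFC-WT males, with 3 libraries in each of the 4 groups. No source used here gives the ages, the deleted stretch of Esr2 or how many mice stand behind the libraries of a group, so the errors measure only the spread between these libraries.

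Proteins of this family are small and have a thioredoxin-like fold that resembles that of glutaredoxins, without the catalytic cysteine pair of those enzymes. They are thought to act by binding other proteins rather than by redox catalysis. The name comes from a proline-rich stretch of the founding member, Sh3bgr, which can bind SH3 domains, and from a run of glutamates at its end. In human tumour cells SH3BGRL has been reported to bind the receptor ERBB2, and SH3BGRL3 to bind the receptor EGFR and the motor protein MYO1C. Sh3bgr itself is a gene of striated muscle. In these Tregs it had 17 counts over the 12 libraries together, at most 0.345 CPM (counts scaled by library size) in any of them, and was not tested.

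The members lie on 3 chromosomes and differ in transcript length and base composition. Sh3bgrl is on chromosome X (109095365 to 109197873, plus strand, GRCm38), Sh3bgrl2 on chromosome 9 (83548327 to 83638801, plus strand) and Sh3bgrl3 on chromosome 4 (134127406 to 134128789, minus strand). In GENCODE M21 the principal transcript of Sh3bgrl has 345 coding bases in 2882, that of Sh3bgrl2 324 in 4565 and that of Sh3bgrl3 282 in 743, so most of the Sh3bgrl and Sh3bgrl2 messages is 3′ untranslated sequence. The coding sequences were identical at 64.1% of 323 aligned bases between Sh3bgrl and Sh3bgrl2, at 56.8% of 278 between Sh3bgrl and Sh3bgrl3 and at 64.3% of 272 between Sh3bgrl2 and Sh3bgrl3. The longest identical run in these alignments was 13 bases. The longest annotated transcript of Sh3bgrl had a GC content of 36.6%, lower than in all but 0.86% of the 12092 tested genes with annotation, against 45.5% for Sh3bgrl2 and 58.1% for Sh3bgrl3.

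The promoters are shown because Sh3bgrl and Sh3bgrl2 were both lower in KO-titled libraries and Sh3bgrl3 was not. Whether their sequence has a part in that difference was not tested. Each run ends at the base before the outermost start annotated by RefSeq or GENCODE, in the direction of transcription, and capitals mark the motif GGGCGG. The windows are chrX:109095157-109095364 on the plus strand, chr9:83548088-83548326 on the plus strand and chr4:134128790-134128983 on the minus strand, from RefSeq promoters of GRCm38.p6.
Sh3bgrl: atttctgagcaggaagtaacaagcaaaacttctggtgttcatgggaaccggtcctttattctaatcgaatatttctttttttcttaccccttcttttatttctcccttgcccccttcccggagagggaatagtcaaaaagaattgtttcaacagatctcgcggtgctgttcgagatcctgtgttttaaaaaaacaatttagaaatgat
Sh3bgrl2: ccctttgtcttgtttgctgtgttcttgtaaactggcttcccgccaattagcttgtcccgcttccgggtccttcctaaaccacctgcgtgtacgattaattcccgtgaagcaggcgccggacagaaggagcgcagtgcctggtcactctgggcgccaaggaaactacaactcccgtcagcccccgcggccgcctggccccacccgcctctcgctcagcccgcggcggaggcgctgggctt
Sh3bgrl3: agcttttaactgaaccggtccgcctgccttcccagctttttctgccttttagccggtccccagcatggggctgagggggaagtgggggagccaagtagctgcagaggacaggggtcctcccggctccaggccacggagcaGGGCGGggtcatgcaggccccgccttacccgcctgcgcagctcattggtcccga
In the 250 bases before each RefSeq start, 5 motifs were searched on both strands and counted over 27025 promoters of the same length. The palindromic estrogen response element, which is GGTCA followed after any 3 bases by its reverse complement, was in none of the 3 promoters and in 0.0629% of all. At that share hardly any set of 3 promoters would hold it, so nothing is read from its absence. The receptor motif AGGTCA (13.8% of all), the AP-1 motif TGACTCA (4.43%) and TATAAA (13.0%) were likewise in none of the 3. GGGCGG (32.9%) occurred in Sh3bgrl3 with 2 matches, 1 of them in the run shown, and in neither of the others. The same 250 bases held 7 CG dinucleotides in Sh3bgrl, 22 in Sh3bgrl2 and 18 in Sh3bgrl3, against a median of 6 over all promoters. The Sh3bgrl promoter was also the poorest in G and C of the 3, with 42.4% against 62.8% for Sh3bgrl2, 67.2% for Sh3bgrl3 and a median of 52.0%.

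Several libraries went against their titles. Esr2 had 161, 94 and 128 counts in the libraries titled KO female 1, 2 and 3 and 8, 2 and 95 in KO male 1, 2 and 3, against 0, 133 and 159 in WT female 1, 2 and 3 and 0, 1 and 14 in WT male 1, 2 and 3. The knocked-out gene therefore did not follow the titled genotype, and KO and WT below mean the titles only. A gene count takes in any exons outside the deletion, so it is a limited check of a KO title. Xist and Y-linked counts were opposite to the titled sex in KO female 1, KO male 1, KO male 2 and WT female 2. Leaving these libraries out keeps KO male 3 as the only KO male library. By these counts KO male 1, KO male 2, KO female 2 and KO female 3 had high Xist. KO male 3 and KO female 1 had Y-linked counts instead. The titled KO males and KO females thus had the same make-up. Of the WT libraries only WT female 1 and WT female 3 had high Xist, so KO and WT differed in make-up. The part of this imbalance in the KO minus WT differences was not tested. Female and male below mean the titles only. The title number 2 stands on both WT male 2 and WT male 3. Total counts ranged from 10200506 to 14786367 in KO and from 13439554 to 16748380 in WT libraries, and 0 counts allowed up to 0.291 CPM in the shallowest library (3 counts, counting error only). The 8 Treg markers, Foxp3 and Il2ra among them, summed to between 4320 and 5900 CPM in every library, and Il7r, whose product is low on the sorted cells, had 143 to 252 CPM.

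Sh3bgrl, which encodes the family member on the X chromosome, was lower in every KO-titled library than in any WT-titled library. It had 92.8, 117 and 73.3 CPM in KO females 1, 2 and 3 and 74.4, 70.0 and 68.5 CPM in KO males 1, 2 and 3. It had 164, 153 and 174 CPM in WT females 1, 2 and 3 and 147, 158 and 157 CPM in WT males 1, 2 and 3. The highest KO library was KO female 2, and a gap separated it from the lowest WT library, WT male 1. The mean was 82.7 ± 19.0 CPM in KO and 159 ± 9.14 CPM in WT libraries (SD, n = 6 each). Averaged over the sexes, KO minus WT was -0.96 (SE 0.12) on the log2 scale, or 0.516-fold, and without the 4 libraries against their titled sex it was -1.02 (SE 0.18). In that comparison edgeR called 206 of 13692 tested genes at an adjusted p under 0.05 (1.5%), 83 higher (0.606%) and 123 lower (0.898%), and 2183 (15.9%) had an unadjusted p under 0.05. All 6 KO libraries lay below all 6 WT libraries in 196 genes (1.43%) and above them in 133 (0.971%). Since the choice of the family used this comparison, nothing is read from these shares. In bulk libraries, fewer cells with the transcript and less transcript per cell cannot be told apart.

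**Figure D1:**
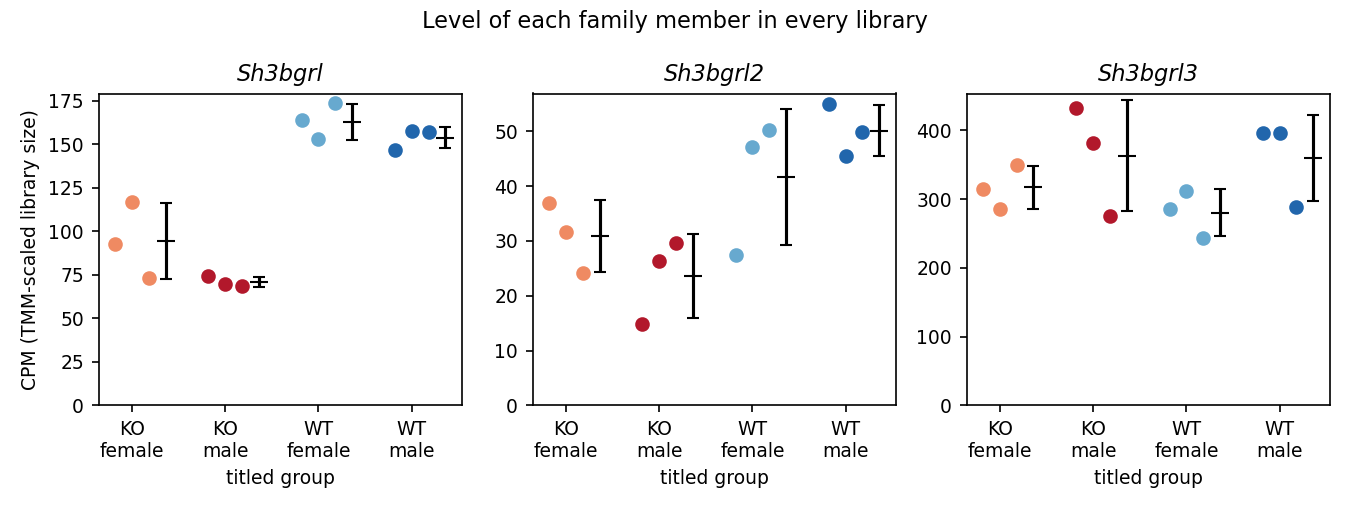
CPM of Sh3bgrl, Sh3bgrl2 and Sh3bgrl3 in each library (points, in replicate order 1 to 3) by titled group, with the mean and SD of each group in black (n = 3). Sh3bgrl lies between 68.5 and 117 CPM in KO and between 147 and 174 CPM in WT libraries, while Sh3bgrl3 overlaps between all groups.

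Sh3bgrl2, the member with the longest transcript, was lower on average in KO-titled libraries but overlapped with WT. It had 37.0, 31.6 and 24.1 CPM in KO females 1, 2 and 3 and 14.9, 26.3 and 29.6 CPM in KO males 1, 2 and 3. It had 27.5, 47.2 and 50.3 CPM in WT females 1, 2 and 3 and 54.9, 45.5 and 49.8 CPM in WT males 1, 2 and 3. The overlap came from WT female 1, which lay below 3 of the KO libraries. The mean was 27.3 ± 7.5 CPM in KO and 45.9 ± 9.55 CPM in WT libraries (SD, n = 6 each), with a log2 fold change of -0.76 (SE 0.19). Without the 4 libraries against their titled sex this was -0.64 (SE 0.22).

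Sh3bgrl3, the member with the shortest transcript, differed between KO and WT by less than its standard error. It had 315, 286 and 349 CPM in KO females 1, 2 and 3 and 432, 382 and 275 CPM in KO males 1, 2 and 3. It had 286, 311 and 243 CPM in WT females 1, 2 and 3 and 396, 396 and 288 CPM in WT males 1, 2 and 3. High and low libraries stood in both genotypes, and within both male groups the library numbered 3 was the lowest. The mean was 340 ± 60.3 CPM in KO and 320 ± 62.7 CPM in WT libraries (SD, n = 6 each), with a log2 fold change of 0.09 (SE 0.13). The sign of this small value turned negative without the 4 libraries against their titled sex (-0.08) and with the trend on GC content and length removed (-0.13).

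Per length, Sh3bgrl3 was the most abundant member and Sh3bgrl2 the least. Per kilobase of annotated exon, Sh3bgrl3 averaged 414 ± 73.4 CPM in KO and 390 ± 76.4 in WT libraries, Sh3bgrl 25.1 ± 5.75 and 48.1 ± 2.77, and Sh3bgrl2 3.46 ± 0.954 and 5.83 ± 1.21, each in the same order (SD, n = 6). The ranges of the 3 members did not overlap in any group. Over all libraries the mean level per kilobase exceeded that of 99.7% of tested genes with annotation for Sh3bgrl3, 87.2% for Sh3bgrl and 42.3% for Sh3bgrl2. With the longest transcript as the length, Sh3bgrl2 came to 5.97 CPM per kilobase in KO and 10 in WT, so its level rests on which of its long transcripts is used, but the order of the members was the same.

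Within the counts of the family, Sh3bgrl had a lower mean share in KO (18.6 ± 4.77%) than in WT libraries (30.7 ± 4.76%, SD, n = 6 each). Sh3bgrl made up 14.3 to 26.9% of the family's counts in KO and 24.6 to 37.2% in WT libraries. Sh3bgrl3 made up 65.8 to 82.9% in KO and 52.1 to 66.2% in WT libraries, and Sh3bgrl2 between 2.87 and 8.32% in KO and between 5.75 and 10.8% in WT. All of these ranges overlapped, for Sh3bgrl and Sh3bgrl3 only at their edges. These shares are not per length, and a fall of one member raises the share of the others.

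**Figure D2:**
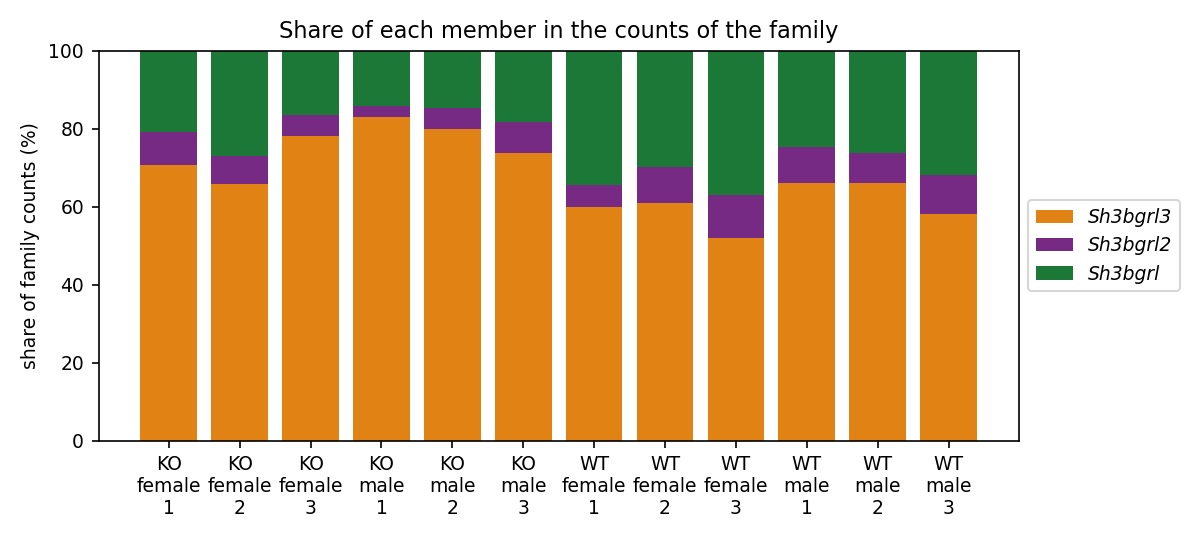
Share of Sh3bgrl, Sh3bgrl2 and Sh3bgrl3 in the summed counts of the family in each library, in percent, with KO-titled libraries on the left. The Sh3bgrl3 share is lowest in WT female 3 (52.1%) and highest in KO male 1 (82.9%).

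The reads of Sh3bgrl2 can be told from those of other annotated genes, while a part of the other members cannot. No stretch of 50 bases in the Sh3bgrl2 transcripts occurred in a transcript of another gene. For Sh3bgrl3, 17.0% of such stretches occurred on the opposite strand in Ubxn11, which overlaps its exons, and the library kit does not mark strand. Ubxn11 had 7898 counts over the 12 libraries against 54471 for Sh3bgrl3, so the Sh3bgrl3 values may hold or lack reads of that overlap. For Sh3bgrl, 6.22% of the stretches were shared, mostly with Gm6377, a predicted gene on the same strand with 60 counts against 20415 for Sh3bgrl.

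By titled sex, the KO minus WT difference of Sh3bgrl was -0.79 (SE 0.16) in females and -1.12 (SE 0.17) in males on the log2 scale. The male comparison set KO male 1 and KO male 2, with high Xist, against WT libraries with Y-linked counts. The 3 KO libraries lay below the 3 WT libraries in both sexes, as did 11.8% of tested genes in females and 7.45% in males. Sh3bgrl2 differed by -0.43 (SE 0.27) in females, where KO and WT overlapped, and by -1.08 (SE 0.27) in males, where they did not. Its value in females was -0.67 without WT female 1 and -0.27 without WT female 3. Sh3bgrl3 differed by 0.18 (SE 0.19) in females and 0.01 (SE 0.19) in males. Without the 4 libraries against their titled sex, Sh3bgrl had -0.83 in females and -1.20 in males, Sh3bgrl2 -0.49 and -0.78, and Sh3bgrl3 0.25 and -0.42, in the same order. KO male 3 was then the only KO male library, so these male values rest on it alone for KO. Over the whole table edgeR called 0 of 13692 genes (0%) in females, and 10 (0.073%) in males, 8 higher (0.0584%) and 2 lower (0.0146%). An unadjusted edgeR p under 0.05 was found for 1055 genes in females (7.71%) and 1947 in males (14.2%). In females limma voom with library quality weights called 1698, and limma on the deposited log2 values called 0. DESeq2, given all 26609 genes, called 20 in females.

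Whether the KO effect differed between the titled sexes was tested as an interaction. The titled KO females and KO males had the same make-up by Xist and Y-linked counts. The test therefore compares titles and cannot decide on sex as measured. The choice of the family did not use this contrast itself. It did use the KO minus WT comparisons of each sex that make it up, so the test is not fully separate from the choice. No member passed in edgeR. The effect in females minus that in males was 0.33 for Sh3bgrl (95% interval -0.17 to 0.82, adjusted p = 0.900), 0.65 for Sh3bgrl2 (-0.16 to 1.47, adjusted p = 0.900) and 0.16 for Sh3bgrl3 (-0.40 to 0.73, adjusted p = 0.939). All 3 values were positive, but each interval holds 0. Without the 4 libraries against their titled sex, with KO male 3 as the only KO male library, they were 0.36, 0.29 and 0.67. Sh3bgrl had 0.14 without KO female 2, Sh3bgrl2 0.41 without KO male 1 and Sh3bgrl3 -0.01 without KO male 3. Of 13692 genes edgeR called 0 (0%) and limma voom with library quality weights 0, and 659 (4.81%) had an unadjusted p under 0.05 in edgeR. DESeq2, given all 26609 genes, called 1. A missed threshold does not show that the titled sexes responded alike.

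Titled females and males were compared within each genotype, and the choice of the family did not use these 2 comparisons. In KO the titled sexes had the same make-up by Xist and Y-linked counts, so that comparison is one of titles only. In KO, Sh3bgrl averaged 94.4 ± 21.9 CPM in females and 71.0 ± 3.07 CPM in males (SD, n = 3 each). That difference of 0.41 on the log2 scale (95% interval 0.06 to 0.76) had an unadjusted edgeR p of 0.0245 and did not pass over all genes (adjusted p = 0.849). KO female 3 lay within the KO male range, and without KO female 2 the difference was 0.23. Sh3bgrl2 differed by 0.39 (-0.19 to 0.97, adjusted p = 0.849) and Sh3bgrl3 by -0.20 (-0.60 to 0.20, adjusted p = 0.869). Without KO male 1 these were 0.15 for Sh3bgrl2 and -0.06 for Sh3bgrl3. In WT, Sh3bgrl averaged 163 ± 10.4 CPM in females and 154 ± 5.93 CPM in males, a difference of 0.09 (-0.26 to 0.43, adjusted p = 0.929). Sh3bgrl2 differed by -0.27 (-0.84 to 0.31, adjusted p = 0.844) and Sh3bgrl3 by -0.36 (-0.76 to 0.04, adjusted p = 0.718) in WT, and without WT female 1 that of Sh3bgrl2 was -0.03. From low to high, the Sh3bgrl levels ran KO males, KO females, WT males and WT females, and only between KO females and WT males did neighbouring groups not overlap.

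In both sex comparisons edgeR called 0 of 13692 genes (0%), with 722 in KO (5.27%) and 893 in WT (6.52%) at an unadjusted p under 0.05. DESeq2, given all 26609 genes, called 0 in KO and 35 in WT. With library quality weights, limma voom called 0 in KO and 348 in WT, and limma on the deposited log2 values called 0 in each. Leaving out the 4 libraries whose sex-linked counts went against the title left 1 KO male library and turned the sign in KO for Sh3bgrl2 (-0.06) and Sh3bgrl3 (0.23). It left Sh3bgrl at 0.50 in KO and 0.14 in WT. The lone KO male library is there assumed to vary like the other groups, so no call is read from it.

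**Figure D3:**
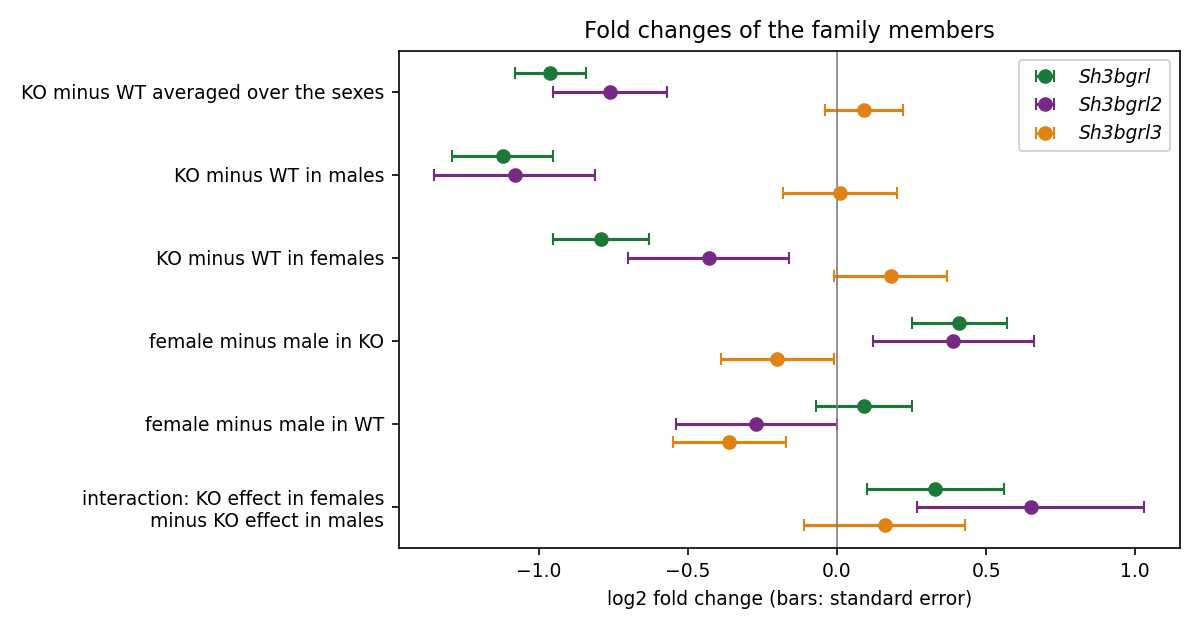
Log2 fold changes of Sh3bgrl, Sh3bgrl2 and Sh3bgrl3 in the 6 comparisons, with standard errors as bars. Sh3bgrl and Sh3bgrl2 lie below 0 in the 3 comparisons of KO with WT, at -0.96 and -0.76 in the average, and Sh3bgrl3 lies near 0 at 0.09.

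The libraries were also set out by their Esr2 count, 50 or more against under 50, as a description with no test. The counts nearest to that limit were 94 above it and 14 below it. Sh3bgrl ranged from 68.5 to 174 CPM in the 6 libraries with 50 or more Esr2 counts and from 70.0 to 164 CPM in the 6 with fewer. Both classes held low and high libraries. Every KO-titled library was below every WT-titled one over all libraries, so any split keeps that order in each class. Nothing about Esr2 is read from it. Among libraries with 50 or more Esr2 counts, Sh3bgrl was at most 117 CPM in the 4 titled KO and at least 153 CPM in the 2 titled WT. Among those with fewer, it was at most 74.4 CPM in the 2 titled KO and at least 147 CPM in the 4 titled WT. Sh3bgrl2 ranged from 24.1 to 50.3 CPM with 50 or more Esr2 counts and from 14.9 to 54.9 CPM with fewer. Sh3bgrl3 ranged from 243 to 349 CPM with 50 or more and from 286 to 432 CPM with fewer. Its 4 highest libraries (KO male 1, KO male 2, WT male 1 and WT male 2) all had under 50. These 4 were also all titled male, so Esr2 count and titled sex cannot be told apart there. Nothing about Esr2 is read from Sh3bgrl3 either.

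**Figure D4:**
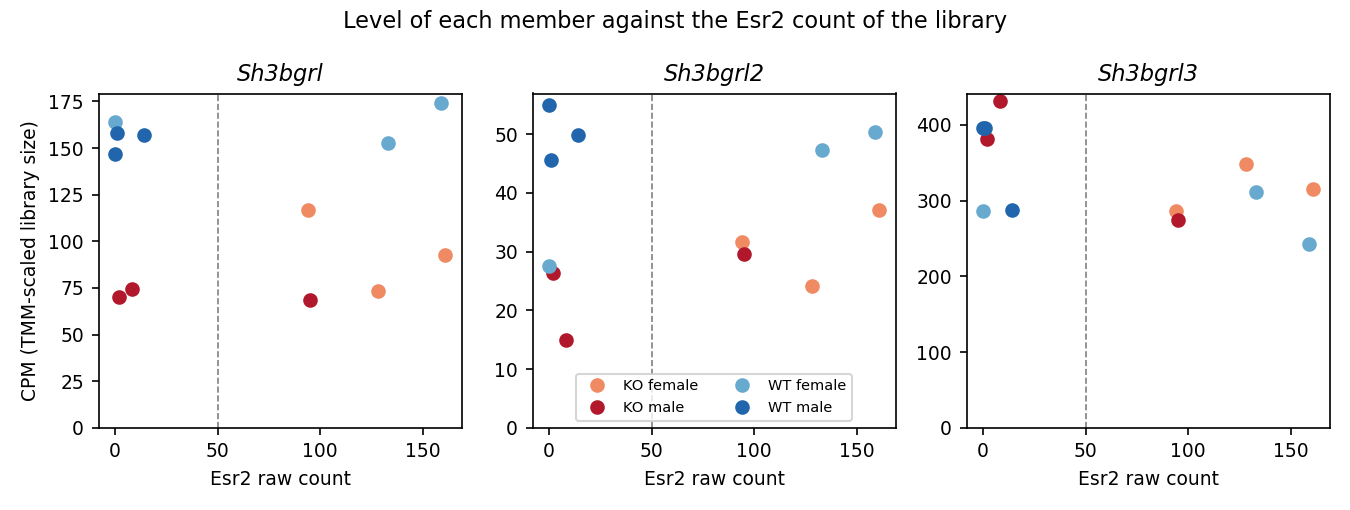
CPM of each member against the raw Esr2 count of the library, colored by titled group, with a dashed line at 50 counts. For Sh3bgrl the KO-titled libraries lie below the WT-titled libraries, at most 117 against at least 147 CPM. This holds over all libraries, and so on each side of any line.

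The members differed in how closely libraries of one group agreed. The SD of log2 CPM within groups was 0.18 for Sh3bgrl, smaller than in most of the 1916 genes of like level (28.5% had a smaller one). It was 0.39 for Sh3bgrl2, where 83.1% of 2072 genes of like level had a smaller one, and 0.24 for Sh3bgrl3, where 57.3% of 569 did. Like level means a mean within 0.5 on the log2 CPM scale. The spread of Sh3bgrl was largest among KO females (SD 0.34 on the log2 scale) and between 0.06 and 0.09 in the other groups.

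KO minus WT differences over the whole table moved with GC content, and Sh3bgrl lies at the low end of that range. The median log2 fold change was -0.22 in the lowest of 10 equal bins of annotated tested genes by GC content and 0.19 in the highest. Among 80 genes with a GC content within 2 percentage points of that of Sh3bgrl and a similar length, the median was -0.24. The same median was -0.13 for 735 genes like Sh3bgrl2 and 0.13 for 62 genes like Sh3bgrl3. With a trend on GC content and length removed from each library, the KO minus WT value of Sh3bgrl was -0.66 (SE 0.11), that of Sh3bgrl2 -0.64 (SE 0.19) and that of Sh3bgrl3 -0.13 (SE 0.11). This setting was chosen after seeing the data. The trend itself gave -0.31 at the GC content and length of Sh3bgrl, -0.12 at those of Sh3bgrl2 and 0.23 at those of Sh3bgrl3. Genes called over the whole table numbered 70 with it removed, against 206.

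**Figure D5:**
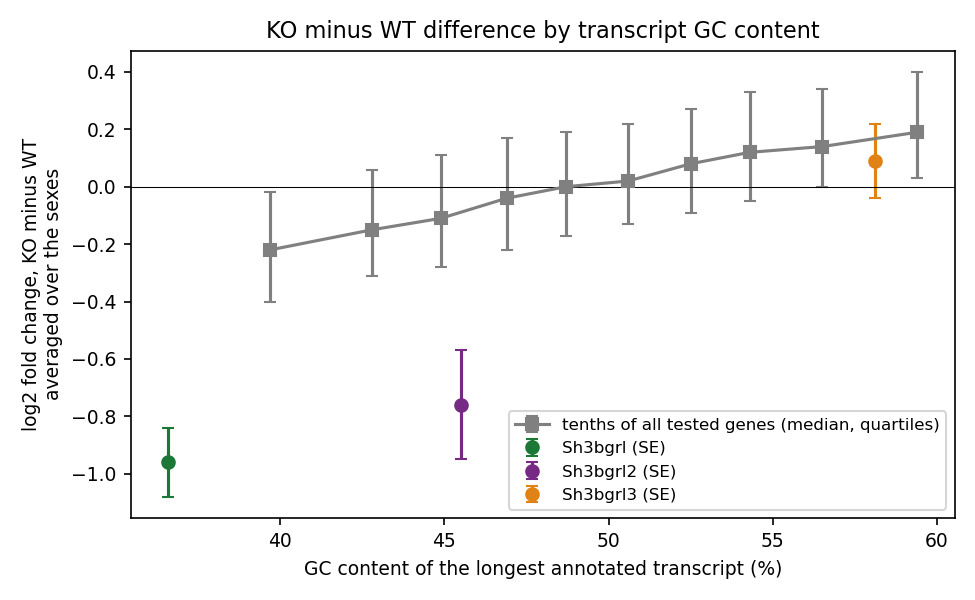
Log2 fold change of KO over WT, averaged over both sexes, against the GC content of the longest annotated transcript, in percent. Grey squares are medians of 10 equal bins of the annotated tested genes with quartiles as bars, from -0.22 at the low to 0.19 at the high end. Colored points are the members with standard errors, at -0.96 for Sh3bgrl and -0.76 for Sh3bgrl2.

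Markers of B cells, neutrophils and stroma were higher in KO-titled libraries, beside the lower Sh3bgrl and Sh3bgrl2. The 10 B-cell markers summed to 176 to 406 CPM in KO and 39.9 to 227 CPM in WT libraries (two-sided exact permutation p = 0.00649, adjusted over 11 lists 0.0238), and all 10 had a higher mean in KO. The 9 neutrophil markers summed to 1.86 to 53.2 CPM in KO and 0 to 1.00 CPM in WT (adjusted p = 0.0238, exact permutation test), with 8 higher in KO. The 7 stromal and endothelial markers summed to 3.89 to 30.4 CPM in KO and 1.34 to 3.94 CPM in WT (adjusted p = 0.0238, exact permutation test). None of these markers was at 0 in every library. Platelet markers, listed because SH3BGRL2 is a known transcript of human platelets, summed to 1.07 to 3.96 CPM in KO and 1.11 to 3.59 CPM in WT. The macrophage and monocyte sum (167 to 422 CPM in KO, 25.9 to 368 CPM in WT) and the CD8 and NK cell sum (116 to 177 and 77.3 to 145 CPM in the same order) did not pass (adjusted p = 0.1 each, exact permutation test). Both passed when 1 library was left out, the macrophage and monocyte sum without WT female 1 (adjusted p = 0.0476, exact permutation test) and the CD8 and NK cell sum without KO female 1 (adjusted p = 0.0238, exact permutation test). Neither the platelet and dendritic cell sums nor the erythroid and epithelial sums passed (lowest adjusted p = 0.443, exact permutation test). Without the 4 libraries against their titled sex, the log2 differences of the B-cell, neutrophil and stromal sums were 2.24, 4.02 and 2.04, against 1.72, 3.06 and 1.45 with all libraries. With the 3 KO and 5 WT libraries left, the smallest exact permutation p was 0.0357 before adjustment, so the adjusted p of 0.0982 of each says nothing of their stability. Their part in the Sh3bgrl and Sh3bgrl2 differences was not tested.

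Genes with the pattern most like each member were found by the root mean square difference of centred log2 CPM over the 12 libraries, among 8448 genes averaging at least 10 CPM. For Sh3bgrl they were Abi1 (0.160), an adaptor of the WAVE actin-regulating complex, Dcun1d1 (0.160), a cullin neddylation factor, and Pcmtd1 (0.178), with Mzt1 (0.200) of the gamma-tubulin complex and the retromer subunit gene Vps26a (0.202). Sh3bgrl itself had a root mean square deviation of 0.524 around its mean. Abi1 averaged 131 ± 29.6 CPM in KO libraries against 208 ± 18.2 CPM in WT libraries, and Dcun1d1 68.4 ± 9.94 CPM against 112 ± 6.34 CPM in the same order (SD, n = 6 each). Picking genes by likeness over the same libraries largely builds in a lower KO level, so it is no separate result. The GC content of the longest transcripts of these 5 genes was 38.0 to 43.0%, against a median of 49.7% over annotated tested genes.

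The genes most like Sh3bgrl2, which had a root mean square deviation of 0.536 around its own mean, were the transcription factor gene Bhlhe40 (0.263), the glycogen branching enzyme gene Gbe1 (0.276), Rbbp9 (0.284), the G-protein regulator gene Rgs1 (0.298) and the Rag GTPase gene Rragd (0.299). Rgs1 averaged 369 ± 62.1 CPM in KO against 633 ± 190 CPM in WT libraries, and Gbe1 28.5 ± 7.43 CPM against 40.8 ± 3.00 CPM in the same order (SD, n = 6 each). Here too the lower KO level was largely built in by the choice. Sh3bgrl3 varied less itself, with a deviation of 0.247, so its differences are not on the same footing as those of the others. The genes most like it were Csnk2b (0.071), Uqcrq (0.073), Banf1 (0.075), Ppia (0.077) and Polr2j (0.080), which encode a casein kinase subunit, a respiratory complex subunit, a chromatin-binding protein, cyclophilin A and an RNA polymerase subunit. Their longest transcripts had 900 to 2853 bases, with a median of 1261 against 3300 over annotated tested genes, and Sh3bgrl3 had 743. No gene stood in more than one of the 3 sets.

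Listed redox genes, made up of thioredoxin-fold proteins and the reductases and inhibitor that act on them, did not pass in any comparison with edgeR. All 25 listed redox genes were tested, and in the average of both sexes 0 were called in KO minus WT, where 1.5% of all genes were. At that share few calls or none would fall among these 25 genes. Their median log2 fold change was -0.03 against 0.02 over all genes, with 10 positive and 4 of 25 at an unadjusted p under 0.05, against 15.9% of all genes. The most abundant, the disulfide isomerase gene Pdia3 and the thioredoxin inhibitor gene Txnip, had 0.30 (SE 0.16, adjusted p = 0.397) and -0.12 (SE 0.11, adjusted p = 0.642). The medians of the list were 0.11 in females and -0.13 in males for KO minus WT, and 0.15 for the interaction.

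Genes of the reported binding partners, listed with other ERBB receptors, ligands, adaptors and regulators of that pathway, did not pass either. The values of the list are therefore not those of the partners alone. Of 18 listed genes 13 were tested, and 0 were called in any comparison, where 1.5% of all genes were called in KO minus WT over both sexes. Among 13 genes, few calls or none would fall at that share. The median KO minus WT value over both sexes was -0.37 against 0.02 over all genes, with 5 of 13 positive and 4 of 13 at an unadjusted p under 0.05, against 15.9% of all genes. Grb2, the adaptor of growth factor receptors, had -0.20 (SE 0.12, adjusted p = 0.441), and Myo1c 0.21 (SE 0.16, adjusted p = 0.554). The receptor genes Erbb2 and Egfr, singled out after their values were seen, averaged 0.905 and 0.475 CPM over the 12 libraries.

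Of the tested neighbours within 2 Mb of the members, 0 passed in KO against WT averaged over the sexes, where 1.5% of all genes did. At that share few calls or none would fall among so few genes. Of 8 tested genes near Sh3bgrl, 6 were negative, with a median of -0.32 against 0.02 over all genes. The most abundant of them were Itm2a, at 0.39 (SE 0.12, adjusted p = 0.127), and the receptor gene Gpr174, at -0.54 (SE 0.14, adjusted p = 0.0668). Near Sh3bgrl2, 4 of 6 were negative with a median of -0.13, and the most abundant were Phip at -0.18 (SE 0.16) and Bckdhb at -0.08 (SE 0.13). Near Sh3bgrl3, 23 of 64 were negative with a median of 0.09, and the most abundant were Cd52 at 0.19 (SE 0.16) and Tmem50a at 0.04 (SE 0.18). Ubxn11, the gene that overlaps Sh3bgrl3, had 0.48 (SE 0.13, edgeR adjusted p = 0.0794). Gm6377, the gene that overlaps Sh3bgrl, had 3.43 (SE 1.18, edgeR adjusted p = 0.173) at a mean of only 0.394 CPM.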

How the data were processed

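The files the authors deposited were raw read counts for 26609 genes in 12 libraries and log2 values for 24584 of the genes. SMART-Seq v4 and Nextera XT libraries were made, per the labels' protocols. HISAT2 2.0.5, featureCounts 1.5.0-p2, edgeR and GRCm38 are named in the submitters' processing notes. The deposited log2 values equal log2 CPM recomputed from the counts with a prior count of 0.25, to within 5e-14. Members and gene lists were chosen with earlier results of these data known.

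From the counts, 13692 genes passed filterByExpr, and in each library they held 99.8% of counts or more. CPM used TMM-scaled library sizes. Comparisons used edgeR 4.0.16 (quasi-likelihood, TMM, 4 groups of 3 libraries in one fit, Benjamini-Hochberg over all tested genes, threshold 0.05) in R 4.3.3, tested on simulated data. KO and WT average both sexes equally. Alternatives used DESeq2 1.42.0 and limma 3.58.1, the latter with library quality weights in the voom fit. Named genes were the members, the most abundant 2 of each list in which none passed, and the 5 closest patterns per member among genes with at least 10 CPM, provisional names left out. Marker sums used an exact permutation test of log2(summed CPM + 1). Transcripts, lengths and positions came from GENCODE M21, which matched 12092 (88.3%) of the tested genes, and promoters from RefSeq.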

Additional observations from a re-analysis of the deposited data

Results flagged for a closer look

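Sh3bgrl2 in the library titled WT female 1 stood apart from the other WT libraries. It had 27.5 CPM there, while the other 5 WT libraries had 45.5 CPM or more. On the log2 CPM scale its gap to the nearest library was 0.73 of the range of the 6. The limit used was a ratio of 0.625, which chance passes in about 1 in 20 groups. The 6 KO and the 6 WT libraries were searched for each member, and only this library stood out. Over that many groups, such a library is less rare than in 1 group. Without WT female 1, the log2 fold change of Sh3bgrl2 was -0.88 averaged over the sexes and -0.67 in females. In that library Sh3bgrl (164 CPM) and Sh3bgrl3 (286 CPM) lay within the range of the other WT libraries.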

How the results depend on the processing

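In KO minus WT, Sh3bgrl and Sh3bgrl2 were negative under every alternative run. Leaving out each library gave -1.05 to -0.88 for Sh3bgrl and -0.88 to -0.64 for Sh3bgrl2 averaged over the sexes. In females the same gave -0.98 to -0.65 for Sh3bgrl, the lowest without KO female 2, and -0.67 to -0.27 for Sh3bgrl2. With the GC and length trend removed, Sh3bgrl was -0.66 averaged over the sexes, -0.73 in males and -0.58 in females. Without the 4 libraries against their titled sex, KO male 3 was the only KO male library. Sh3bgrl3 was then -0.42 in males for KO minus WT, and female minus male in KO turned to -0.06 for Sh3bgrl2 and 0.23 for Sh3bgrl3. When each library was left out, the interaction was 0.14 to 0.48 for Sh3bgrl, 0.41 to 0.84 for Sh3bgrl2 and -0.01 to 0.30 for Sh3bgrl3. The log2 difference of the epithelial sum was -0.25 to 0.01 when each library was left out, above 0 without KO female 3. With the longest transcript as length, Sh3bgrl came to 55.1 CPM per kilobase in WT and Sh3bgrl2 to 5.97 in KO and 10 in WT. The cause of these moves was not tested.

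Counts of called genes over the whole table were unstable. Averaged over the sexes 206 were called, 12 to 543 when a library was left out and 9 to 627 under other alternatives. In males it was 10, 0 to 734 and 0 to 443. In females it was 0, 0 to 2 and 0 to 1698. For female minus male it was 0, 0 to 324 and 0 to 63 in KO, and 0, 0 to 38 and 0 to 348 in WT. For the interaction it was 0, 0 to 4 and 0 to 106.

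With the title number as a replicate block, Sh3bgrl had -0.93 averaged over the sexes, -1.06 in males and -0.81 in females, Sh3bgrl2 -0.77 and Sh3bgrl3 0.12 averaged over the sexes, and 9 genes were called. The 18 pairs of libraries with the same number correlated at -0.21 to 0.13, and 2 of 12 libraries correlated best with their own number, so the numbers were not read as pairs.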
